A study of Mus musculus with 7 samples.

Results

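Antimicrobial peptides and secreted defence proteins were followed in mouse epidermis 2 weeks after deletion of Abca12. The members are all genes of the deposited table whose symbol marks a beta-defensin, cathelicidin, lipocalin 2, lysozyme, WAP-domain protein, peptidoglycan recognition protein, Reg3 lectin, ribonuclease or angiogenin, lactoferrin, serum amyloid A or chitinase-like protein, or elafin. There were 18 such genes among the 7091 listed. GENCODE M21 has 100 protein-coding genes whose symbols fit the same pattern, 42 of them beta-defensins, and the others, Camp, Ltf and the Reg3 and Saa genes included, were not analysed here.

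Messenger RNA was sequenced from epidermis taken from telogen skin, whose hair follicles are at rest. KA mice (K14-CreERT;ABCA12-cKO; KA 1 and KA 2 male, KA 3 and KA 4 female) carry a conditional allele of Abca12, which encodes a lipid transporter of the skin barrier, and a Cre recombinase that tamoxifen switches on, expressed from the keratin 14 promoter, which is active in basal keratinocytes. The control mice (ABCA12-c/c, no CreERT; 2 females, controls 1 and 3, and 1 male, control 2) carry the conditional allele without the recombinase. Both groups received tamoxifen, at 1 mg per 40 g, on 3 days in a row at 8 weeks of age, so the deletion and the presence of an active recombinase cannot be told apart. Each library came from 1 numbered mouse.

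Epidermis holds back microbes with a cornified layer and with proteins that keratinocytes secrete. Beta-defensins damage microbial membranes, peptidoglycan recognition proteins and lysozyme bind or cut the bacterial cell wall, lipocalin 2 takes up the siderophores that bacteria use to collect iron, and WAP-domain proteins inhibit proteases. Several are induced in keratinocytes by interleukin 17, interleukin 22 and interleukin 1, and several are also made by neutrophils and macrophages.

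The table lists only genes with adjusted p-values below 0.05 in the authors' own test (7091 of 19407 genes, 36.5%), so every member had already been selected on these 7 libraries. Reads in the listed genes came to between 9590718 and 12761458 per library, which is a part of each library and not its depth. Values below are normalized reads, the count divided by 1 size factor per library (0.888 to 1.247), so that 1 normalized read is close to 1 read. The targeted gene was not analysed here (0 rows), and the genotypes were taken as labelled. The keratinocyte genes Krt5 and Krt14 were abundant in every library. Krt5 had between 220536 and 354814 normalized reads and Krt14 between 97831 and 390177. None of the 7 genes on a fibroblast list was in the table, which holds only changed genes, so their levels are not known here. Of 5 endothelial markers 1 was listed, Pecam1, with means of 14.5 in controls and 42.5 in KA. Of 5 adipocyte markers 1 was listed, Cidec, with means of 5.06 in controls and 29.5 in KA. In bulk epidermis a smaller number of cells of a type and less RNA per cell cannot be told apart.

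Of the 18 members 12 were higher in KA and 6 lower. The higher genes were Lcn2, Chil1, Rnase2b, Slpi, Lyz2, Pglyrp1, Pglyrp3, Defb3, Defb4, Defb6, Wfdc17 and Wfdc18. The lower genes were Wfdc21, Pglyrp4, Rnase4, Defb13, Defb15 and Defb35. In 17 of the 18 the values of both groups stood apart without overlap, which held for 93.3% of all listed genes, and Pglyrp3 was the exception. After a filter on low counts 14 members could be refitted, and 10 passed as higher and 4 as lower (edgeR's quasi-likelihood test, Benjamini-Hochberg adjusted p under 0.05 over 6749 genes), where 100% of the listed genes tested passed, 52.7% as higher and 47.3% as lower. Because of that selection, the counts of calls say nothing particular about these genes and the values below carry the description. Defb4, Defb13, Defb15 and Wfdc18 had too few reads for the filter, and their adjusted p-values come from a fit without it. Some others, Wfdc17, Defb3 and Defb35 among them, passed the filter only through the group where they had more reads. Their adjusted p-values are therefore no independent support.

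**Figure D1:**
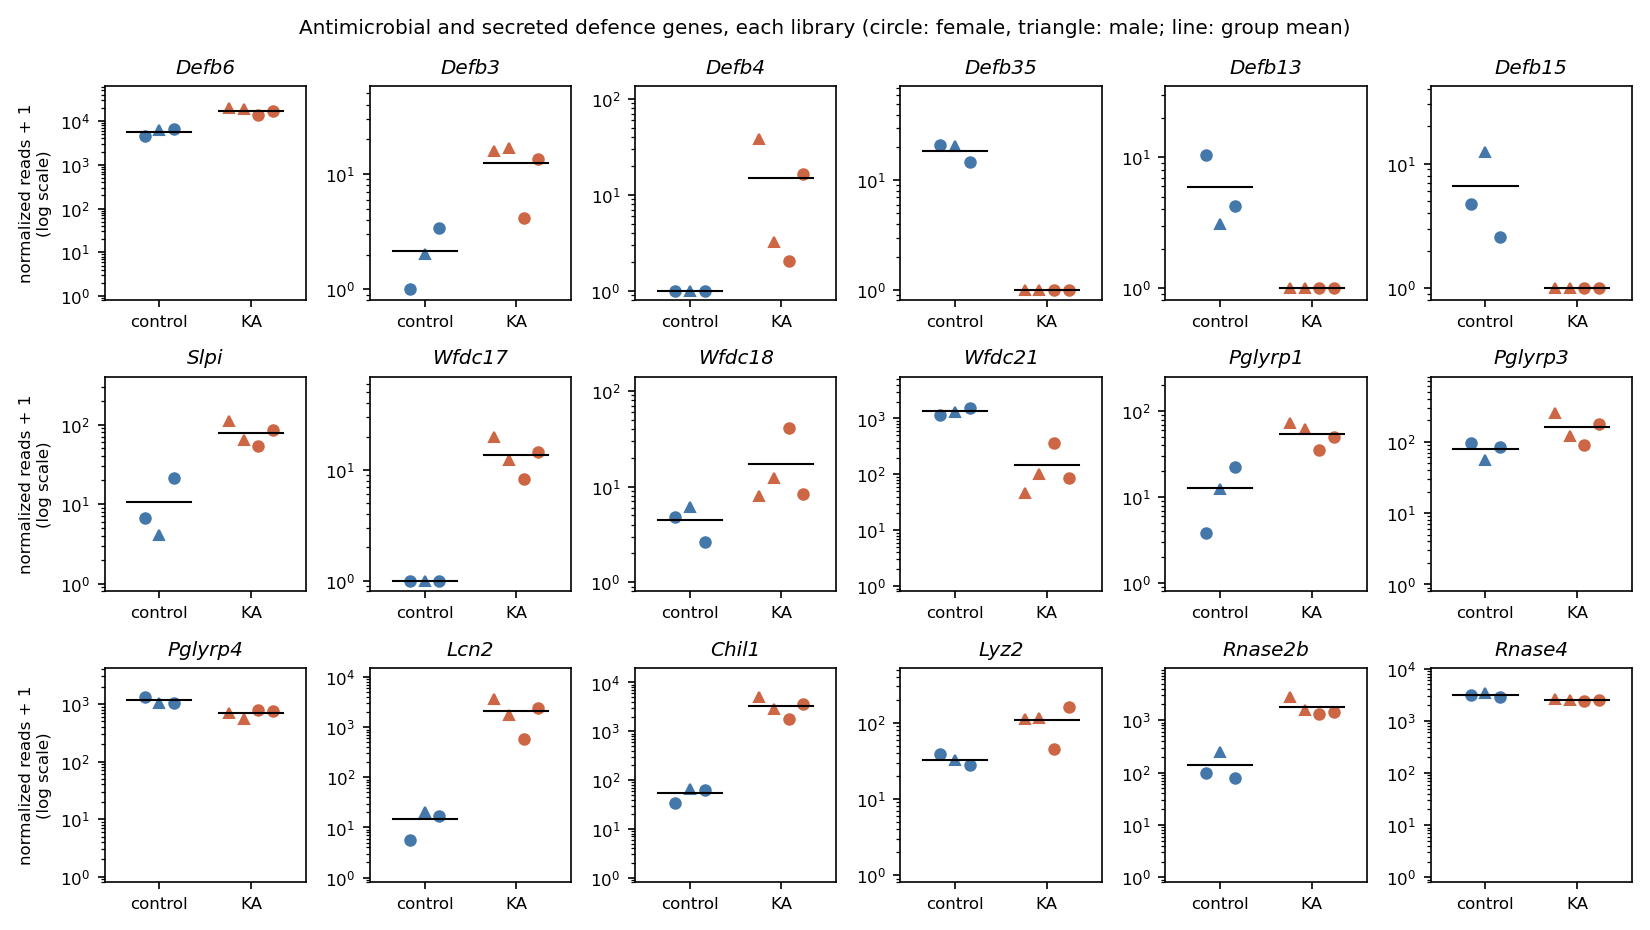
Normalized reads plus 1 (log scale) of the 18 members in each of 3 control and 4 KA libraries, with circles for females, triangles for males and a line at the group mean. Lcn2 and Chil1 show the widest gaps among the abundant genes, Defb13, Defb15 and Defb35 sit at 0 reads in all 4 KA libraries, and Pglyrp3 is the member whose groups overlap.

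The beta-defensins split by position. Defb6 (ENSMUSG00000050756, chromosome 8, 19225478 to 19228209) was the most abundant member and rose about 3-fold. It had 4504, 6115 and 6554 normalized reads in controls 1, 2 and 3 and 19407, 18951, 13457 and 16827 in KA 1, 2, 3 and 4. The lowest KA library stood above the highest control. The log2 fold change was 1.58 (SE 0.182, adjusted p = 5.47e-05). Defb6 alone gave 43.0% to 53.4% of all reads of the 18 members in controls and 55.5% to 66.0% in KA.

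Defb3 and Defb4, inducible defensins that flank Defb6, were near silent in controls. Defb3 (ENSMUSG00000039775, chromosome 8, 19293360 to 19295291) had 0, 1.03 and 2.41 normalized reads in the 3 controls and 14.8, 15.8, 3.13 and 12.5 in KA 1 to 4. KA 3 lay just above the highest control. The log2 fold change was 3.13 (SE 0.83, adjusted p = 0.00517), and 4.23 without control 3. Defb4 (ENSMUSG00000059230, chromosome 8, 19198706 to 19201545) had no read in any control and 36.6, 2.25, 1.04 and 15.6 normalized reads in the KA libraries. Counts of 37, 2, 1 and 15 underlie these values, so the rise rests mainly on KA 1 and KA 4. Against 3 counts over the control group, which a count of 0 allows, Defb4 was at least 15.1-fold higher (adjusted p without the filter 0.0136), or at least 6.86-fold without KA 1.

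The other defensins, Defb15, Defb35 and Defb13, are best known from the epididymis and lie 2635 kb or more from Defb3 on the same chromosome. They fell to 0 reads in all 4 KA libraries. Defb35 (ENSMUSG00000058052, chromosome 8, 21938352 to 21940878) had 21, 19 and 17 counts in controls, or 19.9, 19.6 and 13.6 normalized reads, and was at least 22.5-fold lower (adjusted p = 0.000322). Defb13 (ENSMUSG00000044222, chromosome 8, 21946762 to 21948850) had 10, 2 and 4 counts in controls and was at least 6.25-fold lower (adjusted p without the filter 0.00869), or at least 3.35-fold without control 1. Defb15 (ENSMUSG00000048500, chromosome 8, 21929799 to 21932710) had 4, 11 and 2 counts and was at least 7.10-fold lower (adjusted p without the filter 0.00995), or at least 3.43-fold without control 2. Levels were thus low in controls. The bounds, taken against 3 counts over the KA group, allow only for the counting error of that group. They leave out the error of the control counts and the variation between mice, and PCR copies of a molecule were not told apart.

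In GENCODE M21 the window from Defb4 to Defb3 spans 96.6 kb and holds 5 protein-coding genes, of which the 3 listed were all higher. The window from Defb15 to Defb13 spans 19.1 kb and holds 3, all listed and all lower. Between the outer ends of both windows lie 52 protein-coding genes, of which these 6 are the listed ones. Exons of Defb15 share 58% of their bases with Gm36879, an antisense gene that also fell, from 61.5, 37.1 and 36.1 normalized reads in the controls to 0.989, 1.13, 1.04 and 0 in the KA libraries. The strand setting of the counting is not given in the sources used here, so reads of Defb15 and Gm36879 cannot be told apart over that stretch. As a check on shared reads, 50-base words of each member's transcripts were looked up in the transcripts of all other genes. The share found elsewhere was 0% for Defb3, Defb6, Defb13 and Defb15, 8.72% for Defb35 (with Defb12) and 5.68% for Defb4 (with Defb8).

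**Figure D2:**
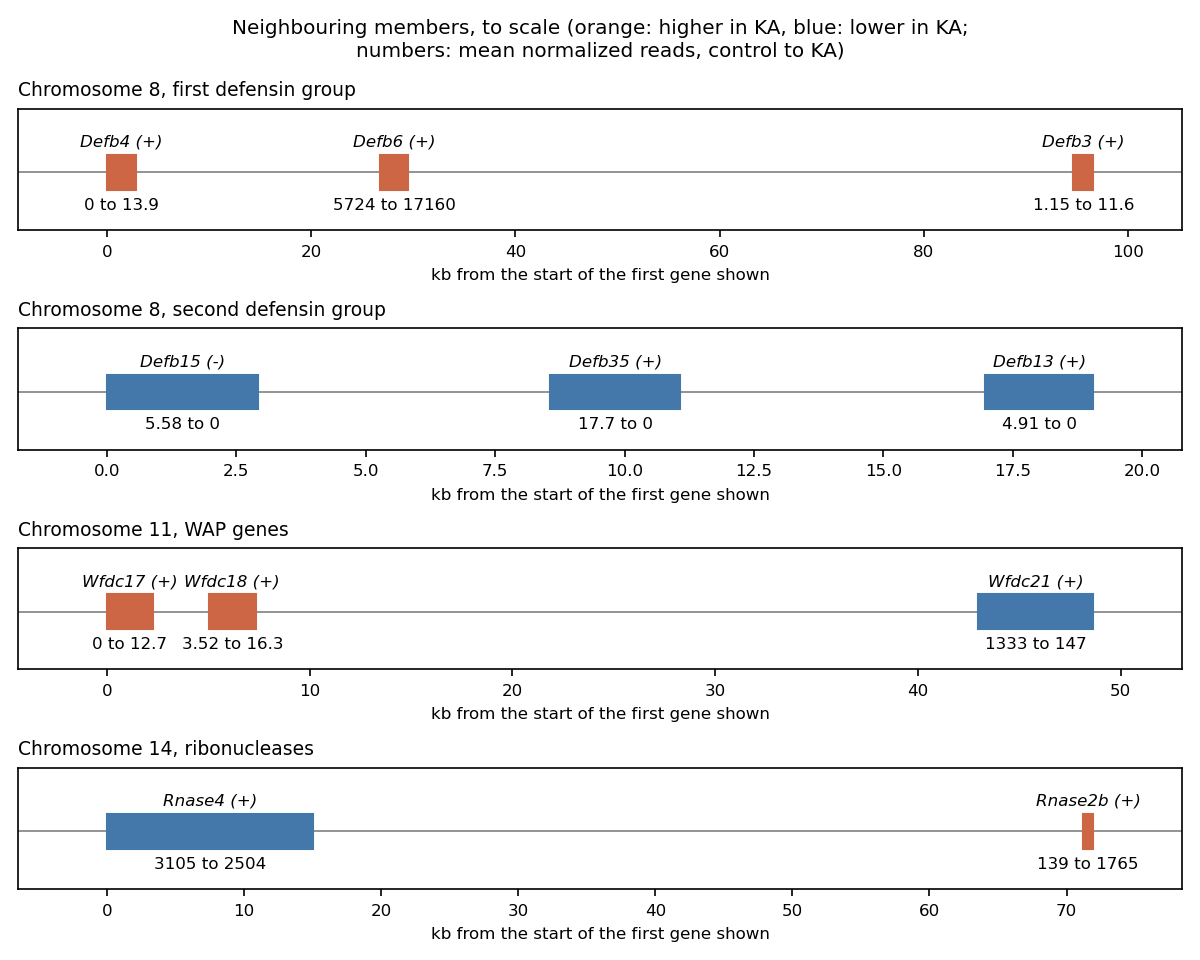
Members that lie close together, drawn to scale in kb from the start of the first gene shown, orange where higher and blue where lower in KA, with the mean normalized reads of controls and KA under each gene. The first defensin group is orange throughout and the second blue throughout, while the WAP genes and the ribonucleases hold both colours.

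Promoter sequences are shown for defensins of both groups because these moved in opposite directions. They are the 250 bases before the start site in RefSeq's table on GRCm38.p6, which holds 13 of the 18 members. Capitals mark matches on either strand to TTGCNNAA, the letters of a C/EBP site, where N is any base. No other searched motif matched in these 4 windows.
Defb3, chr8:19293111-19293360, plus strand: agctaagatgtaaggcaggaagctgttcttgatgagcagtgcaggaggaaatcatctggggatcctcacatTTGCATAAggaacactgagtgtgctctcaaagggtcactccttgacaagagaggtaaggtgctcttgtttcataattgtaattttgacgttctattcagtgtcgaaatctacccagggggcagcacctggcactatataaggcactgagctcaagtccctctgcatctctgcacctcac
Defb6, chr8:19225228-19225477, plus strand: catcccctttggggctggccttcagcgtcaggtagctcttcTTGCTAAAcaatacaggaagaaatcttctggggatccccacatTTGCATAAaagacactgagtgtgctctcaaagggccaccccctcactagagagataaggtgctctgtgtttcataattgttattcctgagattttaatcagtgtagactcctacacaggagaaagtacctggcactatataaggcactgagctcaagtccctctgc
Defb13, chr8:21946505-21946754, plus strand: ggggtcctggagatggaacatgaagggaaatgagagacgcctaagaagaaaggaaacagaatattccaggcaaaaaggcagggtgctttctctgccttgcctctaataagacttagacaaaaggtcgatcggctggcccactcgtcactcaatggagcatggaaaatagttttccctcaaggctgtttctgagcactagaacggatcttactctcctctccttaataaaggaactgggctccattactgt
Defb15, chr8:21932711-21932960, minus strand: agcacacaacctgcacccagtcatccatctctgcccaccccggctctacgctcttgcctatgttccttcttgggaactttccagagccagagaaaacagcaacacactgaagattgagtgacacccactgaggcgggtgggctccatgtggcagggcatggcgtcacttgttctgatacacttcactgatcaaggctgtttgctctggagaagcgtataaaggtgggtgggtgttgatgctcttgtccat
Defb3 had 1 match, 179 to 172 bases before the start, and Defb6 had 2, at 209 to 202 and 166 to 159 bases, while Defb13 and Defb15 had none. The windows of Defb3 and Defb6 were 74.0% identical (196 of 265 aligned columns), and the other pairs among these 4 were 44.1% to 50.3% identical. A match is only a description of letters, and no match says nothing about a factor.

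Among the members with reads in every library, Lcn2 and Chil1 rose most. Lcn2 (ENSMUSG00000026822, chromosome 2, 32384633 to 32388252) had 4.73, 19.6 and 16.04 normalized reads in controls and 3680, 1765, 579 and 2401 in KA 1 to 4. All KA libraries stood far above all controls, but they differed 6.36-fold among themselves. Its mean was 157-fold higher in KA, from 13.5 ± 7.76 (SD, n = 3) to 2106 ± 1293 (SD, n = 4), with a log2 fold change of 7.28 (SE 0.789, adjusted p = 0.000107). Chil1 (ENSMUSG00000064246, chromosome 1, 134182176 to 134190181) encodes a chitinase-like protein that binds chitin and does not cut it. It had 32.2, 63.9 and 60.9 normalized reads in controls and 5129, 2918, 1810 and 3639 in KA 1 to 4. The rise from 52.4 ± 17.5 (SD, n = 3) to 3374 ± 1391 (SD, n = 4) was 64.5-fold, with a log2 fold change of 6.01 (SE 0.437, adjusted p = 1.34e-05).

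The promoter windows of Lcn2 and Chil1 are shown because their means rose most among members with reads in every library. In Lcn2 the capitals mark TTGCNNAA, as in Defb3 and Defb6, and in Chil1 they mark GGGA and CC parted by any 4 bases, the letters of an NF-kB site.
Lcn2, chr2:32387740-32387989, minus strand: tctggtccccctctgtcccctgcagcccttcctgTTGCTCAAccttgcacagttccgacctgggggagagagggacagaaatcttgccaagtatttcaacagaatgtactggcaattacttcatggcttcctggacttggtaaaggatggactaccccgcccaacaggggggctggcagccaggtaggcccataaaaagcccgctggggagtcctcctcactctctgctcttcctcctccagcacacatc
Chil1, chr1:134181906-134182155, plus strand: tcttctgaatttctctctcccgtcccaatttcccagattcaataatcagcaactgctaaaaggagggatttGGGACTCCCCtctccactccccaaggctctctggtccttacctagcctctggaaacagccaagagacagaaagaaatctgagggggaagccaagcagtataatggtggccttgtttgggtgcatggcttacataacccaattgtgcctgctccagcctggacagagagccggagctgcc
TTGCNNAA matched in 6 of the 13 members with a window (Defb3, Defb6, Lcn2, Rnase2b, Slpi and Rnase4), and in 9.56% of all 32851 promoter windows. A count of members and a share of windows are unlike measures, since the 13 members have 14 windows. Rnase4, which fell, has windows with and without a match. Defb3 and Defb6 have similar windows and are not separate cases. Whether members exceed the share of all windows was not tested. The NF-kB letters matched in 2 of the 13, Chil1 and Pglyrp1, and in 17.6% of all windows. Letters of AP-1 sites (TGANTCA, 6.75% of all windows) and of STAT sites (TTCNNNGAA, 7.02%) matched in 0 of the 13.

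Lyz2 encodes the lysozyme of macrophages and neutrophils. Lyz2 (ENSMUSG00000069516, chromosome 10, 117277331 to 117282321) had 37.9, 30.9 and 26.5 normalized reads in controls and 111, 116, 43.9 and 159 in KA 1 to 4. KA 3 lay close above the highest control. The log2 fold change was 1.76 (SE 0.40, adjusted p = 0.00236). Of its 50-base words 15.4% also occur in Lyz1, so some of its reads could belong to that gene.

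WAP-domain genes moved both ways. Slpi (ENSMUSG00000017002, chromosome 2, 164354070 to 164389095), an inhibitor of neutrophil elastase with antimicrobial activity, had 5.68, 3.09 and 20.05 normalized reads in controls and 111, 63.1, 52.2 and 85.1 in KA 1 to 4. Control 3 was the highest control, and without it the log2 fold change of 2.95 (SE 0.534, adjusted p = 0.00068) became 4.10. Wfdc17 (ENSMUSG00000069792, chromosome 11, 83703991 to 83706268), known from activated macrophages, had no read in any control and 19, 10, 7 and 13 counts in KA 1 to 4. Against 3 counts over the control group it was at least 13.9-fold higher (adjusted p = 0.000625). Wfdc18 (ENSMUSG00000000983, chromosome 11, 83709015 to 83711348), a proteinase inhibitor known from mammary epithelium, had 3.79, 5.15 and 1.604 normalized reads in controls and 6.92, 11.3, 39.7 and 7.27 in KA 1 to 4. Only KA 3 was far from the controls in this gene, and the ratio of the means, 4.63, was 2.41 without it. The log2 fold change without the filter was 2.21 (SE 0.784, adjusted p = 0.0183), and without control 3 it was 1.84 with an adjusted p of 0.0682.

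Wfdc21, 35.6 kb from Wfdc18, went the other way. Wfdc21 (ENSMUSG00000051748, chromosome 11, 83746940 to 83752642) had 1164, 1289 and 1545 normalized reads in controls and 44.5, 99.1, 359 and 86.2 in KA 1 to 4. Its mean fell from 1333 ± 194 (SD, n = 3) to 147 ± 143 (SD, n = 4), which is 9.05-fold lower, with a log2 fold change of -3.18 (SE 0.585, adjusted p = 0.00135). KA 3 kept the most reads, and without it the log2 fold change was -4.13. The 3 WAP genes of chromosome 11 share no 50-base word with any other gene, and GENCODE M21 has no further protein-coding gene between them.

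**Figure D3:**
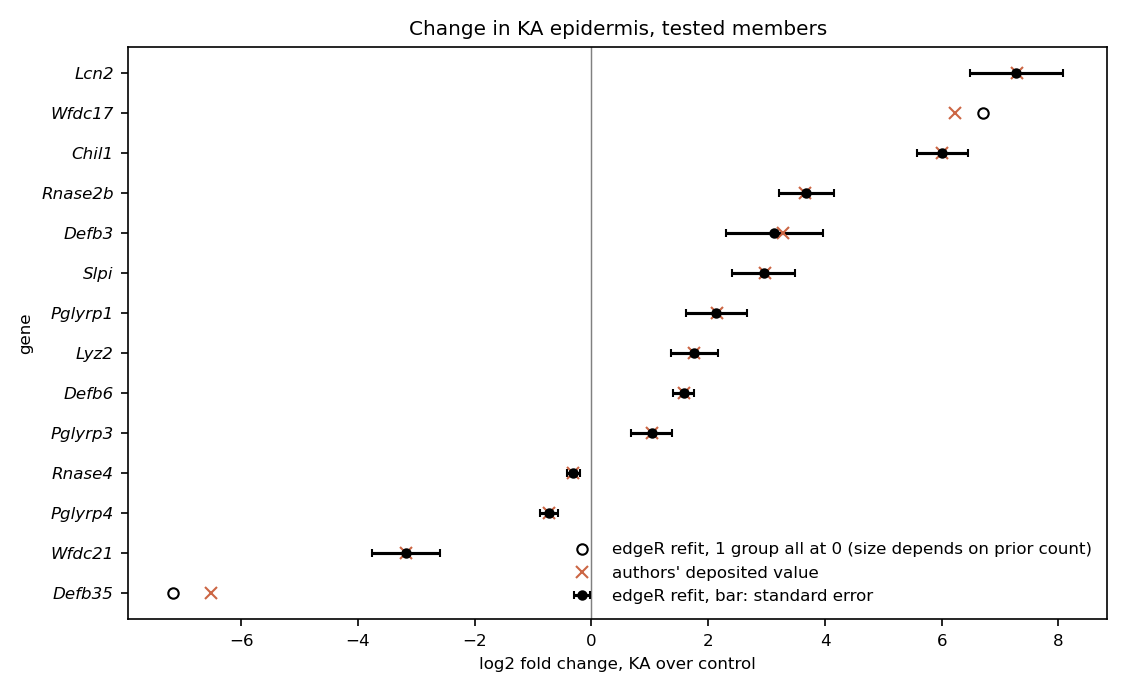
Log2 fold change, KA over control, of the 14 members that passed the filter, with edgeR estimates and standard errors in black and the authors' deposited values as crosses. Open circles mark Wfdc17 and Defb35, where 1 group had no reads and the fitted size depends on the prior count. Lcn2 and Chil1 lie at 7.28 and 6.01, and Rnase4 lies nearest to 0 at -0.31.

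The peptidoglycan recognition proteins also differed in direction. Pglyrp1 (ENSMUSG00000030413, chromosome 7, 18871331 to 18890459), stored in neutrophil granules, had 2.84, 11.3 and 21.7 normalized reads in controls and 71.2, 62.0, 34.5 and 48.8 in KA 1 to 4. The groups did not overlap, and the log2 fold change was 2.14 (SE 0.520, adjusted p = 0.00335) or 2.93 without control 3. Among females alone the log2 fold change was 1.72 and the call was lost (adjusted p = 0.0543). Pglyrp3 (ENSMUSG00000042244, chromosome 3, 92014583 to 92031582) and Pglyrp4 (ENSMUSG00000042250, chromosome 3, 90726906 to 90741517) are secreted by epithelia and lie 1273 kb apart at the epidermal differentiation complex. Pglyrp3 had 95.6, 53.6 and 82.6 normalized reads in controls and 247, 119, 89.8 and 175 in KA 1 to 4. KA 3 lay within the range of the controls. The log2 fold change was 1.03 (SE 0.35, adjusted p = 0.016), and the call was lost without control 2 (adjusted p = 0.0591) and among females alone (adjusted p = 0.171). Pglyrp4 had 1337, 1052 and 1053 normalized reads in controls and 698, 543, 782 and 756 in KA 1 to 4. It fell in every KA library, with a log2 fold change of -0.72 (SE 0.155, adjusted p = 0.00171).

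Of the ribonucleases, Rnase2b rose and Rnase4 fell slightly. Rnase2b (ENSMUSG00000059606, chromosome 14, 51162260 to 51163018) belongs to the eosinophil-associated ribonucleases. It had 95.6, 246 and 76.2 normalized reads in controls and 2770, 1568, 1310 and 1412 in KA 1 to 4. Its log2 fold change was 3.68 (SE 0.469, adjusted p = 0.000215), and 4.36 without control 2, the highest control. None of its 50-base words occur in another gene. Rnase4 (ENSMUSG00000021876, chromosome 14, 51091077 to 51106151), a widely expressed secreted ribonuclease, had 3148, 3369 and 2798 normalized reads in controls and 2609, 2483, 2436 and 2486 in KA 1 to 4. The log2 fold change was -0.31 (SE 0.110, adjusted p = 0.0188), and the call was lost without control 2 (adjusted p = 0.0944). Exons of Rnase4 share 13.4% of their bases with Ang on the same strand, and 7.75% of its 50-base words occur in Ang.

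Ear1, a relative of Rnase2b and 1 of 7 genes on a list of eosinophil markers, had 0.947, 0 and 0.802 normalized reads in controls and 128, 156, 108 and 244 in KA 1 to 4. Siglecf, the other listed gene of that list, had 18.0, 6.19 and 9.62 in controls and 0.989, 2.25, 4.18 and 1.04 in KA. The remaining 5, Ccr3, Epx and Prg2 among them, were not analysed here, and the part of eosinophils in the rise of Rnase2b was not tested.

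Levels can be compared between genes per length of gene. In controls Defb6 stood first with 17722 normalized reads per kb, followed by Wfdc21 with 3070, Rnase4 with 1897 and Pglyrp4 with 484. In KA Defb6 was again first with 53128, and Rnase2b with 2325 and Rnase4 with 1529 came next, followed by Chil1 with 1203 and Lcn2 with 803. Wfdc21 and Pglyrp4 came after these with 339 and 293. Lcn2 had held the 14th place of 18 in controls, with 5.13.

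The 4 KA libraries differed in how far these genes had moved. KA 3 was the lowest KA library in 11 of the 12 members that were higher, Wfdc18 being the exception, and KA 1 was the highest in 9. Over all 3727 listed genes that were higher, KA 3 was lowest in 49.7% and KA 1 highest in 60.6%. The ratio of KA 1 to KA 3 was 6.36 for Lcn2, 4.74 for Defb3, 2.83 for Chil1 and 1.44 for Defb6. Among the lower members KA 3 also kept the most reads of Wfdc21 and Pglyrp4, but it had the fewest of Rnase4. Defb13, Defb15 and Defb35 had no reads in any KA library. Over the 3319 lower listed genes without a tie, KA 3 kept the most reads in 46.8%. This order of the KA libraries was seen after the values were known and was not tested.

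**Figure D4:**
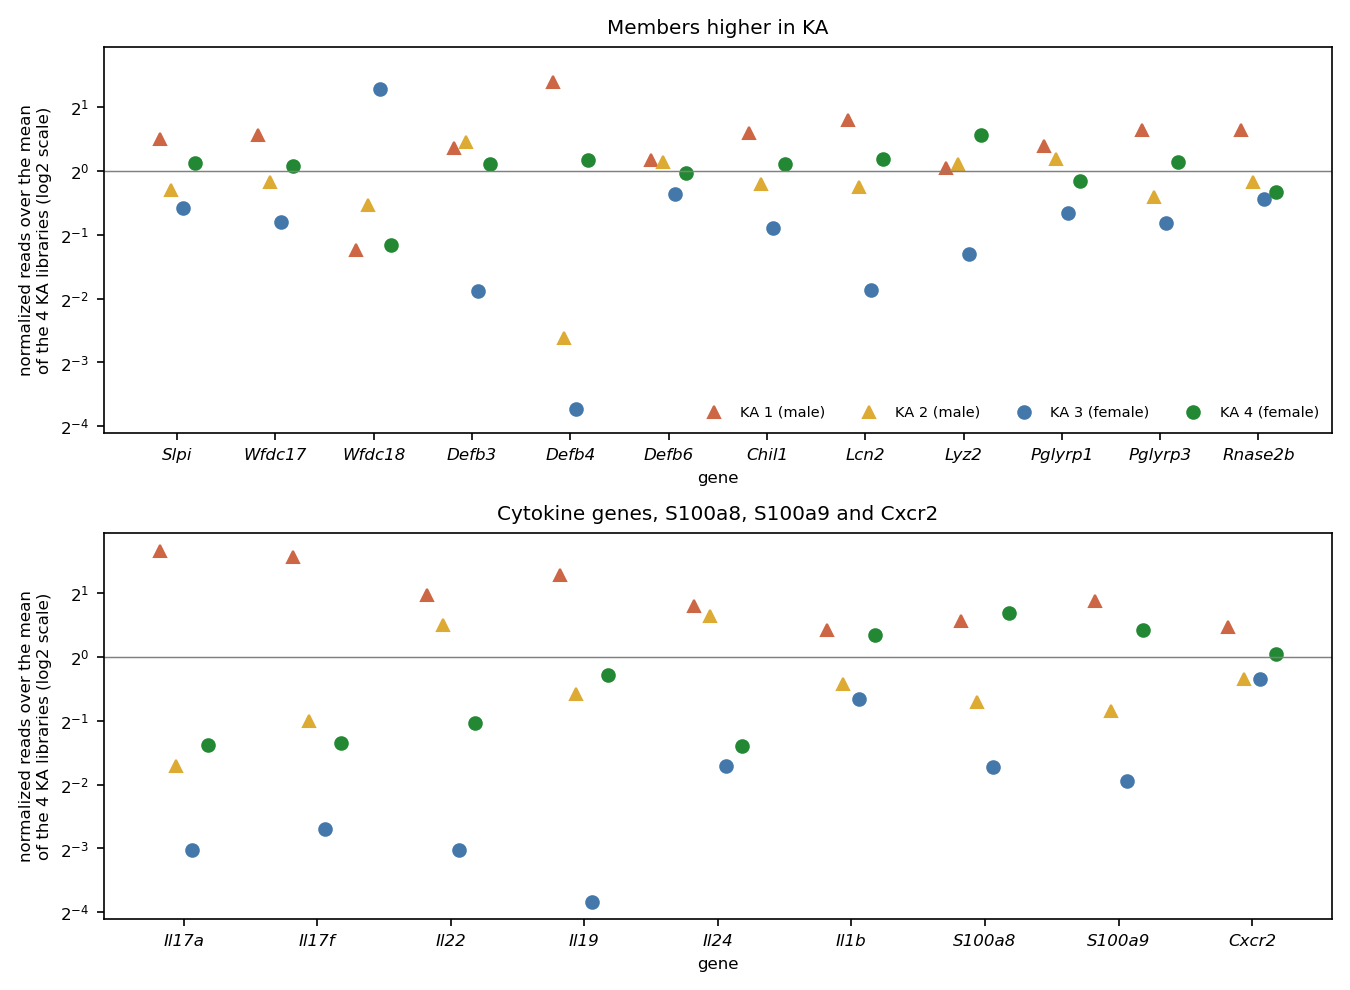
Normalized reads of each gene in KA 1 to KA 4 over the mean of those libraries (log2 scale), with triangles for males and circles for females, for the 12 members higher in KA above and for cytokine genes, S100a8, S100a9 and Cxcr2 below. KA 3 is the lowest point in 11 of the 12 members and in all 6 cytokine genes shown.

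Cytokines known to induce these proteins showed the same low library. A list of 16 such cytokines had 6 in the table, all of them higher in KA (Il17a, Il17f, Il22, Il19, Il24 and Il1b), and the 5 with enough reads passed. Il17f had 0, 0 and 1.604 normalized reads in controls and 321, 54.1, 16.7 and 42.6 in KA 1 to 4 (log2 fold change 7.22, SE 1.59, adjusted p = 0.00307). Il22 had no read in any control and 67.3, 48.5, 4.18 and 16.6 normalized reads in KA 1 to 4 (adjusted p = 0.00341). Il1b went from 23.2 ± 1.23 (SD, n = 3) to 77.0 ± 27.7 (SD, n = 4), and of the 6 it was the one with reads in every library (log2 fold change 1.73, SE 0.344, adjusted p = 0.00115). Each of the 6 was highest in KA 1 and lowest in KA 3, and their part in the levels of the members was not tested.

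Cytokine receptors and microbial sensors, taken as 1 list, moved both ways, with 11 of 22 in the table, 5 passing as higher and 6 as lower. The sensors among the 11 were Tlr2, Tlr3, Nod1 and Nod2. Il17ra, Il17rc, Il17re and Il22ra1, which encode receptor chains for interleukins 17 and 22, were not analysed here. Nod2, a sensor of peptidoglycan fragments, rose from 264 ± 10.1 (SD, n = 3) to 982 ± 313 (SD, n = 4) with a log2 fold change of 1.90 (SE 0.235, adjusted p = 8.78e-05). Il6ra had a mean of 5779 ± 656 in controls (SD, n = 3) and fell to 1959 ± 543 in KA (SD, n = 4). Il20ra went from 1213 ± 199 (SD, n = 3) down to 192 ± 82.9 (SD, n = 4). The median log2 fold change of the 11 was -0.53, against 0.36 over all listed genes tested. Signal transducers and transcription factors had 12 of 18 in the table, 10 passing as higher and 2, Nfkbia and Traf6, as lower, with a median of 0.50. Nfkbiz, a partner of NF-kB that interleukin 17 induces, rose from 1373 ± 307 (SD, n = 3) to 4272 ± 634 (SD, n = 4) with a log2 fold change of 1.64 (SE 0.177, adjusted p = 4.06e-05). Cebpb, a transcription factor of the C/EBP family, had 3040 ± 360 in controls (SD, n = 3) and rose to 7722 ± 1811 in KA (SD, n = 4). Stat3 rose from 3794 ± 449 (SD, n = 3) up to 7772 ± 1552 (SD, n = 4).

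Of 22 further antimicrobial genes outside the members 6 were in the table, 4 passing as higher and 2 as lower. S100a8 and S100a9 encode the subunits of calprotectin, which binds zinc and manganese. S100a8 had 9.47, 6.19 and 8.02 normalized reads in controls and 25227, 10456, 5176 and 27426 in KA 1 to 4, again lowest in KA 3. Ccl20, a chemokine with antimicrobial activity, rose from 18.4 ± 1.52 (SD, n = 3) to 459 ± 189 (SD, n = 4), with a log2 fold change of 4.63 (SE 0.35, adjusted p = 5.93e-06). Cxcl14, an antimicrobial chemokine of resting epidermis, had 8819 ± 1856 in controls (SD, n = 3) and fell to 2852 ± 954 in KA (SD, n = 4). S100a7a fell from 15.5 ± 3.94 (SD, n = 3) down to 4.74 ± 1.89 (SD, n = 4).

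Some markers of white blood cells that also make Lcn2, Chil1, Slpi, Pglyrp1, Lyz2 or Wfdc17 were higher in KA and others lower. Of 14 neutrophil markers 1 was in the table, Cxcr2, a chemokine receptor, with 0, 1.03 and 4.01 normalized reads in controls and 386, 220, 220 and 289 in KA 1 to 4. KA 2 and KA 3 were nearly level in Cxcr2 (219.7 and 220.4). Ly6g, Csf3r, Mmp8 and the other 10 were not analysed here. Of 15 macrophage and monocyte markers 11 were in the table, 7 passing as higher and 3, Adgre1, Cd68 and Arg1, as lower. Control means of these 3 lower genes were 164, 115 and 824 normalized reads, in that order. Their KA means were 61.1, 73.4 and 55.6, with log2 fold changes of -1.42, -0.65 and -3.89. The macrophage genes C1qa, C1qb, C1qc, Ccr2 and Csf1r were among the rises, C1qa from 64.1 ± 24.6 (SD, n = 3) to 304 ± 76.5 (SD, n = 4). Csf1r, the receptor of a macrophage growth factor, rose from 650 ± 151 in controls (SD, n = 3) to 1277 ± 157 in KA (SD, n = 4). Of 8 markers of Langerhans and dendritic cells 7 were in the table and all 7 passed as higher, with a summed level of 23997 to 33427 in controls and 45982 to 68033 in KA. All 3 listed of 8 T cell markers fell, with a summed level of 1125 to 1435 in controls and 556 to 679 in KA. The part of any of these cells in the members' values was not tested.

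Listed markers of follicle, sebaceous and interfollicular keratinocytes were also mostly higher. Of 7 upper follicle genes 5 were in the table and all 5 passed as higher, with a summed level of 76807 to 86839 in controls and 188840 to 264370 in KA, lowest in KA 3. All 8 listed of 9 sebocyte markers passed as higher, with a summed level of 24406 to 36803 in controls and 48098 to 66532 in KA, lowest in KA 4. Of 9 interfollicular keratinocyte markers 4 were in the table, Krt5, Krt14 and Krt1 passing as higher and Dsc3 as lower. Their summed level was 404800 to 452840 in controls and 965110 to 1049000 in KA. KA 3 and KA 4 were nearly level in that sum (965110 and 968490). Among the KA libraries, Krt5 and Krt14 were lowest and Krt1 highest in KA 3. The part of these cells in the rise of Defb6 or of any other member was not tested.

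Animal numbers form a lower run (2 controls, 2 KA) and a higher run (1 control, 2 KA) whose meaning the labels do not give. Both KA mice of the lower run were male and both of the higher run female. Within KA, sex and run therefore cannot be told apart. Within each run all 18 members had both KA libraries beyond the controls in the pooled direction. Among the lower run alone 10 members passed as higher and 3 as lower, with Rnase4 lost (adjusted p = 0.0591). There 90.9% of the listed genes tested passed. Among males all 18 lay beyond the 1 control, and among females 17 did, with Pglyrp3 the exception. Over all 7 libraries 93.3% of listed genes did not overlap, and the shares within a run or sex were not counted. These counts thus say nothing particular about the members.

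Whether males and females differed in their response to the genotype was tested last. Within KA, sex and run of animal numbers were the same split, so these cannot be told apart there. None of the 14 members tested had an adjusted p under 0.05 for the product of genotype and sex by edgeR's quasi-likelihood test, where 0.0445% of all listed genes tested did (3 of 6749). The male control arm was 1 library, so the test could miss sizeable differences, and Wfdc17 and Defb35, with no reads in 1 group, give no usable estimate. At an unadjusted p under 0.05 the count was 0 of 14, against 192 of all 6749, and DESeq2 and limma-voom also gave 0 members. Other settings gave up to 3 members at an unadjusted p under 0.05, the most without KA 4, and 0 after adjustment. Among the other members tested the difference was widest for Slpi, which rose more in males by 2.39 on the log2 scale (SE 1.16, adjusted p = 1), a value that rests on the single male control.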

How the data were processed

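RNA of 7 mice (4 KA, 3 control) had been sequenced from libraries made with a NEBNext Ultra RNA kit. The submitters' processing notes name fastp, STAR 2.6.1d, featureCounts 1.5.0-p3, DESeq2 1.40.2 and mm10. Annotation and strand setting are not given in the sources used here. Per the file headers and values, the deposited table holds read counts per gene, normalized reads (a signal, the count over 1 size factor per library), the log2 fold change and its error from the authors' test, the deposited score of that test, and raw and adjusted p-values of the authors. It holds 0 columns of no sample, and its listed genes all have an adjusted p-value under 0.05, so it is a selection. Positions of all 18 members equal those of GENCODE M21 (GRCm38).

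For the refit, edgeR 4.0.16 (R 4.3.3) was run on the deposited counts (filterByExpr by group, robust glmQLFit and glmQLFTest, Benjamini-Hochberg adjustment over the 6749 genes kept, 342 left out). Libraries were scaled by the authors' size factors, because factors computed from a table of changed genes assume that most did not change. Against TMM and RLE factors this moved the median log2 value up by 0.139 and 0.175, and no member's direction depended on it. An SE is the size of a log2 change divided by the root of its F value. The code was tested on simulated data. A group at 0 was set to 3 counts over the group for bounds, which leave out the error of the other group. Every member was named, with values in each library where a group mean reached 100 normalized reads or the log2 fold change reached 2 in size, and up to 3 genes were named from related lists. Members, lists, motifs and tests were chosen with earlier results of these data known. Alternatives included DESeq2 1.42.0 and limma-voom (limma 3.58.1), other factors and filters, blocks, and each library left out. The summed level of the macrophage and monocyte markers is not reported here.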

Additional observations from a re-analysis of the deposited data

Results flagged for a closer look

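Wfdc18 had 1 KA library far from the others. KA 3 had 39.7 normalized reads against 6.92, 11.3 and 7.27 in KA 1, 2 and 4, and its distance from KA 2, divided by the spread of all 4, was 0.8675, above Dixon's 95% limit for 4 samples. This was the only one of 15 members with a spread among KA libraries to pass that limit, and chance flags about 1 in 20 such groups. KA 3 was the lowest library in the other 11 members that were higher in KA.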

How the results depend on the processing

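No member changed direction under any of the 326 values from 23 alternative settings, and 312 of these stayed on their side of the threshold. The 14 that did not belong to Rnase4, Pglyrp3, Pglyrp1, Pglyrp4 and Wfdc18. Settings that changed only the threshold or the adjustment kept the log2 values of the main fit, so they could not change a direction. Another setting was the authors' own values, which had selected the genes. Members below the filter of a setting have no value there, as in most settings for Defb13 and Defb15. Wfdc17 and Defb3 have none without KA 1, KA 2 or KA 4, among females alone, or with a mean of at least 10 counts required. With a log2 fold change of at least 1 required, the count of lower members went from 4 to 2, since Rnase4 and Pglyrp4 changed less, and 2783 listed genes passed in place of 6746. Among females alone 6 members passed as higher, with 12 members tested in 4 libraries, and 4081 listed genes passed. Leaving out 1 library at a time gave 8 to 12 higher members and 3 to 4 lower ones, with the filter reapplied each time. Between 12 and 16 members were then tested, and 88.3% to 98.8% of the listed genes tested passed. The interaction gave 0 members, with 0 to 3 at an unadjusted p under 0.05. That interaction could not be fitted without control 2, the single male control, nor with the replicate block, which leaves no residual degrees of freedom, and sex is already in its model.

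The labels do not say whether the sample numbers in the titles pair the libraries. Deviations from the group means correlated at -0.19, 0.13 and -0.10 for numbers 1, 2 and 3. With so few libraries these values cannot settle it. The titles also carry the letters A, B and C in both groups, whose meaning the labels do not give. With the replicate block 10 members passed as higher and 3 as lower, Rnase4 having an adjusted p of 0.0677, and 6106 listed genes passed in place of 6746. A block on the title letter also gave 10 higher and 3 lower, with an adjusted p of 0.0541 for Rnase4, and 6581 listed genes passed. Members with few reads, Defb3, Defb4, Defb13, Defb15, Defb35, Wfdc17 and Wfdc18, are limited by depth. With the adjustment widened to 19407 genes Rnase4 no longer passed (adjusted p = 0.0542).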

Other observations

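Proteases and inhibitors of the skin surface, some of which cut antimicrobial peptides, moved both ways: of 14 listed for this purpose 5 were in the table, 3 passing as higher and 2 as lower. Klk6 had 37.3 ± 10.9 normalized reads in controls (SD, n = 3) and rose to 1457 ± 325 in KA (SD, n = 4), with a log2 difference of 5.29 (SE 0.272, edgeR adjusted p = 9.01e-07). Spink5, which encodes an inhibitor of kallikreins, had 10297 ± 580 in controls (SD, n = 3) and fell to 3914 ± 652 in KA (SD, n = 4). Klk5, a kallikrein that can process cathelicidin, fell from 2756 ± 247 (SD, n = 3) down to 1657 ± 720 (SD, n = 4). KA 3 had 2685 normalized reads of Klk5, within the range of the controls (2474 to 2936), against 1006 to 1488 in the other KA libraries.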
